A study of Mus musculus with 4 samples.

Results

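The regions described here were the H3K27ac-enriched regions of mouse embryonic stem (ES) cells whose centre lay in a LINE-1 (L1) repeat. H3K27ac, acetylation of lysine 27 of histone H3, marks active enhancers and promoters. A region was a member when its detailed annotation in the deposited list named the repeat class LINE and the family L1, and it was grouped by the L1 subfamily named there and by the strain whose list held it. Of 11651 H3K27ac regions, 507 were members, 295 of the 6126 in the NOD list and 212 of the 5525 in the B6 list. The series held 4 ChIP-Seq libraries, 1 for H3K27ac and 1 for H3K4me3 (trimethylation of lysine 4, a promoter mark) from ES cells of each of 2 inbred strains, diabetes-prone NOD and C57BL/6 (B6), and no group had a replicate. Both strains' ES cells came from embryos and were grown in 2i, inhibitors of MEK and GSK3. The labels name no line, clone, passage or sex for a library. Each list was called over the same mark in the other strain, so that a region in the NOD list was H3K27ac-enriched in NOD over B6, and the reverse held for B6. H3K27ac shared by both strains is therefore in neither list. With 1 library a group, a difference between the lists compares 2 libraries, and no test was run.

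L1 elements are the autonomous retrotransposons of mammals. A full-length mouse L1 carries at its start a promoter made of short tandem copies called monomers, then a first open reading frame for an RNA-binding protein and a second, ORF2, for the endonuclease and reverse transcriptase. The subfamilies L1Md_A, L1Md_T and L1Md_Gf hold the copies that still move in the mouse, the L1Md_F names are their older relatives, and the L1_Mus, L1_Mur and Lx names are older still and mostly truncated. In pluripotent cells, where DNA methylation is low in 2i, L1 transcription is known to be active, and young monomers are a known source of it.

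The sequences of the young subfamilies, which held 30 of the 507 members, are shown first. The results below on read placement and on monomers rest on sequences of this kind. For L1Md_A, L1Md_T and L1Md_Gf the highest-scoring region of each list is given, as up to 300 bases around its centre on the plus strand of GRCm38 (mm10), the C57BL/6J reference. The NOD list held no L1Md_Gf region, which leaves 5 sequences. Capitals mark bases covered by a 50-base window, the read length, that occurs at a single place in the reference.
L1Md_A NOD, chr10:88629478-88629777: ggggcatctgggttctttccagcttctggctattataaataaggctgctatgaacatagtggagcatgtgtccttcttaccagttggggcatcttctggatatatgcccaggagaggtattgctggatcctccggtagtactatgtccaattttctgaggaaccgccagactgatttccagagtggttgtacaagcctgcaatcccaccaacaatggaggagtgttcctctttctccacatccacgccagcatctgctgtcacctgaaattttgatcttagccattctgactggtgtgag
L1Md_A B6, chr7:104478284-104478583: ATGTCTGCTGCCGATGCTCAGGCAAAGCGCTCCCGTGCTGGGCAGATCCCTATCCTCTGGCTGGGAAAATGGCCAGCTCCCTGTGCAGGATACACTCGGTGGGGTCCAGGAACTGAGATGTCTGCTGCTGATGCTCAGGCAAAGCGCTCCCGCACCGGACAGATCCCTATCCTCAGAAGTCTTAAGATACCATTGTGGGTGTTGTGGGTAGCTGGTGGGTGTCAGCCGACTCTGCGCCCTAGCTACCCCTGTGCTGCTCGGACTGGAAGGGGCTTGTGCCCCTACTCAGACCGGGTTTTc
L1Md_T NOD, chr3:49074451-49074750: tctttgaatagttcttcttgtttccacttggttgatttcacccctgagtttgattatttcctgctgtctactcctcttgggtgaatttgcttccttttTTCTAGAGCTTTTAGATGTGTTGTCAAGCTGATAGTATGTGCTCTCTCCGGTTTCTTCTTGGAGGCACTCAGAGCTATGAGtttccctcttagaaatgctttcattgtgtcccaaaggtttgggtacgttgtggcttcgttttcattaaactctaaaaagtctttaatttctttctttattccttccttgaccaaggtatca
L1Md_T B6, chr8:33226520-33226819: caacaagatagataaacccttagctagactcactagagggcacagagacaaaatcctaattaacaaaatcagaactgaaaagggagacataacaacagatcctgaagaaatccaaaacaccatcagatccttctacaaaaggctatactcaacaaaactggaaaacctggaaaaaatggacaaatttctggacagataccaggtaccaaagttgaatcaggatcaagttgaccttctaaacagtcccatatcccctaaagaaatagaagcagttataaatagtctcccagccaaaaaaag
L1Md_Gf B6, chr6:107103302-107103601: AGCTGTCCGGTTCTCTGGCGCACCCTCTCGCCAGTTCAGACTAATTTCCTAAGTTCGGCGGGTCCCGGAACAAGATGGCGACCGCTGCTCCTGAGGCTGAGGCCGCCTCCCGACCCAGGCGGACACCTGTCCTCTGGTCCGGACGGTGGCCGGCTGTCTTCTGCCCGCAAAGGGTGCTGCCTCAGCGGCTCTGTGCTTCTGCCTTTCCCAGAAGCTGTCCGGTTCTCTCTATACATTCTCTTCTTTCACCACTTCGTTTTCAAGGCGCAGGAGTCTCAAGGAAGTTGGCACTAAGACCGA
The centres of the NOD L1Md_A region and of the B6 L1Md_T region held no such window, and 81 of the 300 bases around the centre of the NOD L1Md_T region were covered by one. The B6 L1Md_A centre was covered at 99.7% and the B6 L1Md_Gf centre at 100%. These 5 sequences hence ranged from bases that 50-base reads cannot place to bases that they can. The centres do not stand for the whole regions. Over the whole region, the share of such windows was 81.4% for NOD L1Md_A, 57.3% for NOD L1Md_T and 30.2% for B6 L1Md_T. For B6 L1Md_A it was 90.7% and for B6 L1Md_Gf 84.3%.

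L1 regions made up 4.82% of the NOD list (exact 95% binomial interval, 4.29 to 5.38) and 3.84% of the B6 list (3.35 to 4.38). These intervals, like all below, cover counting error only and treat regions as independent. The NOD list held 1.39 L1 regions for each in the B6 list (exact interval, 1.16 to 1.67), beside 1.11 (1.07 to 1.15) over all H3K27ac regions. The excess over the whole lists was not particular to L1, since ratios of 1.60 for LTR ERVK, 2.24 for LTR ERV1 and 1.59 for SINE Alu regions stood beside it, while LTR ERVL-MaLR regions, at 1.16, were close to the lists as a whole. The subfamily names numbered 81, 68 in the NOD list and 60 in the B6 list, with 47 in both.

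By group of subfamilies, L1_Mur, L1_Rod and Lx held most of the regions, with 161 in the NOD and 119 in the B6 list (ratio 1.35, 1.06 to 1.73). The next group, other L1, mostly the old L1M names shared with other mammals, had 54 and 47 (1.15, 0.763 to 1.74). L1_Mus, L1VL and L1_Mm had 41 and 23 (1.78, 1.04 to 3.11). L1Md_F, L1Md_F2 and L1Md_F3 had 20 and 12 (1.67, 0.776 to 3.74), and L1Md_A, L1Md_T and L1Md_Gf had 19 and 11 (1.73, 0.781 to 4.02). The intervals of all 5 groups overlapped, so no group was set apart from the others by its ratio. Of single names, Lx7 had the most regions, 22 in NOD and 12 in B6, followed by Lx8 with 18 and 14 and by L1Md_T with 16 and 9. How many copies of each subfamily the genome holds was not used here, so these counts say nothing of enrichment over the genome.

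**Figure D1:**
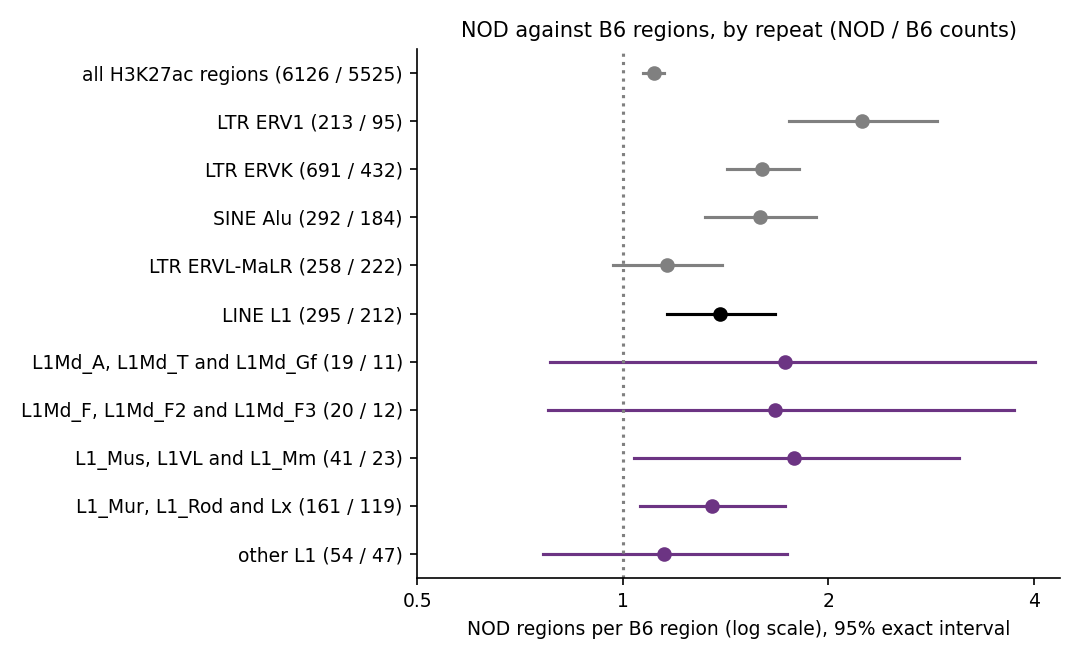
Number of H3K27ac regions in the NOD list for each in the B6 list, on a log axis, for all regions, 5 repeat families and the 5 groups of L1 subfamilies. Points are the ratios, lines exact 95% intervals, and the counts stand beside each name; L1 sits at 1.39 and its 5 groups between 1.15 and 1.78 with overlapping intervals.

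Most L1 regions were narrow, and a smaller number spanned many kilobases. The shortest and most common width was 233 bp in the NOD list, held by 124 L1 regions, and 262 bp in the B6 list, held by 97. At the other end, 74 NOD L1 regions (25.1%) and 43 B6 L1 regions (20.3%) spanned 1 kb or more, up to 20048 bp in NOD and 26206 bp in B6, where the peak caller had joined neighbouring peaks. The score in the lists is the signal of the own strain less that of the other, on a scale the sources used here do not give. Its median was 15.0 for L1 regions in NOD and 12.9 in B6, beside 12.9 and 12.8 over the whole lists. Regions of 1 kb or more had medians of 80.8 in NOD and 63.4 in B6, whereas those under 1 kb had a median of 11.0 in each list. Regions of 1 kb or more outside L1 had medians of 61.1 and 52.5. Per kb of width the order was reversed. The median score per kb was 15.9 in NOD and 17.1 in B6 for wide L1 regions, and 41.2 and 37.6 for those under 1 kb. Scores of at least 100 were reached by 32 NOD and 16 B6 L1 regions.

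The super-enhancer step of the peak caller ranks regions by score and marks those where the ranked curve is steeper than a slope of 1. By this rule 34 NOD L1 regions (11.5%) and 24 B6 L1 regions (11.3%) were super enhancers, beside 8.02% of the whole NOD list and 6.91% of the whole B6 list. Of these, 31 in NOD and 22 in B6 were 1 kb or wider. Among NOD regions of 1 kb or more, 41.9% of L1 regions (30.5 to 53.9) were marked against 32.3% (29.7 to 35.0) outside L1. In B6 the shares were 51.2% (35.5 to 66.7) and 33.7% (30.6 to 36.8). The intervals overlapped in each list. The median widths of these regions were 7644 bp in L1 and 2242 bp outside L1 in NOD, and 5336 and 5538 bp in B6. The rule is one of score, so that these shares describe the members and are no separate readout.

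In the NOD list the highest-scoring L1 region was an 8.50 kb L1MEd region, chr4:145410339-145418840, with a score of 525.6, 49.6 kb from the start of Smarca5-ps, a pseudogene of the chromatin remodeller gene Smarca5. It ranked 21 among all NOD regions. The next was an Lx2B2 region at chr2:131785995-131806043, with a score of 452.1, and then an L1Md_F2 region 32.6 kb from Adgrg6, an adhesion G protein-coupled receptor, with 350.5. An Lx3_Mus region 39.0 kb from Zfp935 scored 323.6, and the L1Md_T region shown above, chr3:49067882-49081320, scored 315.9. A region with the name Lx8 on chromosome X, scored at 305.3, lay in an intron of Tsix, the antisense RNA that represses Xist. Regions in an intron of Ktn1 (L1MA6, 295.2), 8.69 kb from Cyb5a (Lx4A, 271.7), in an intron of Atf7ip2 (L1Md_F3, 266.0) and 19.0 kb from Cand1 (L1Md_F2, 259.2) completed the first 10. All of these 10 were over 7 kb wide (7614 to 20048 bp), so that the L1 at the centre was part of the region and not the whole of it.

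In the B6 list the highest score was 431.4, for a 26.2 kb Lx10 region, chr16:90283474-90309680, 12.1 kb from Scaf4, and it ranked 6 among all B6 regions. An Lx5c region 6.19 kb from Nlrp4f scored 387.5 and an L1_Mus3 region 5.96 kb from Trim5, a restriction factor gene, scored 306.7. Chromosome 6 gave 3 of the first 10, an Lx7 region 683 kb from Rpia (281.3), an Lx4A region in an intron of Ppp1r9a (274.6) and an Lx9 region in an intron of Nod1, a sensor of bacterial peptidoglycan (222.4). Chromosome 8 gave a further 3, an Lx9 region 9.20 kb from Mtmr7 (275.1), the L1Md_T region shown above 159 kb from Wrn (269.1) and an L1MA9 region 10.1 kb from Nkx6-3 (175.4). An Lx8b region in an intron of Stard3nl scored 218.0. The Nod1 region was the narrowest of the 10, at 0.570 kb, and it alone of them was under 1 kb. Of the groups not yet named, the highest scores were 182.3 in NOD for L1_Mus1 (19.5 kb from Etaa1) and 108.1 in B6 for L1Md_F3 (intron, nearest start that of Fcrl5).

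**Figure D2:**
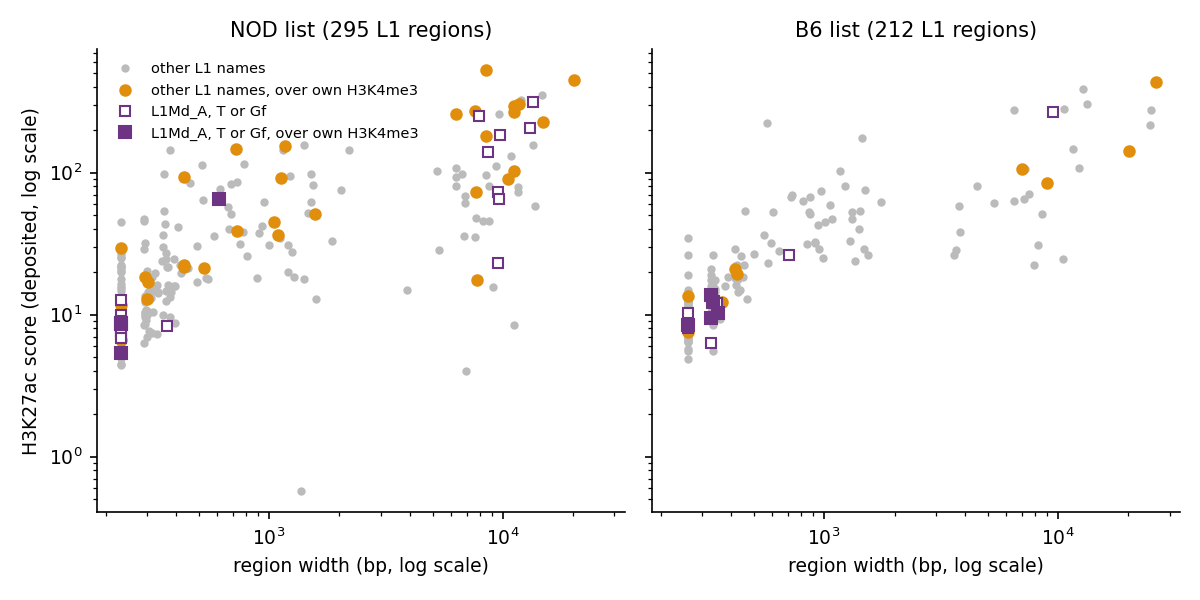
H3K27ac score against region width, both on log axes, for the 295 NOD (left) and 212 B6 (right) L1 regions; each point is 1 region, squares are L1Md_A, L1Md_T or L1Md_Gf, and filled colours mark a region over an H3K4me3 region of the same strain. The filled squares are narrow, between 233 and 608 bp, and the wide squares are open.

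The 30 regions of L1Md_A, L1Md_T and L1Md_Gf were of 2 kinds. Of these, 21 were under 1 kb (11 NOD, 10 B6), with scores of 5.41 to 65.6 and a median GC content of 60.4%. The other 9 (8 NOD, 1 B6) spanned 7.91 to 13.4 kb, with scores of 23.2 to 316 and GC contents of 37.5% to 44.6%. H3K4me3 regions of the same strain lay over 9 of the 21 narrow regions (42.9%, 21.8 to 66.0) and over none of the 9 wide ones (exact upper limit, 33.6%). A tandem period, a shift of 100 to 400 bases at which the reference around the centre repeats itself, was found at 16 of the 21 narrow regions and at none of the 9 wide ones. All 9 narrow regions over H3K4me3 were among the 16 with a tandem period. The shift was 212 bases in 9 of the 16, 214 in 5 and 204 in 2, and a monomer array repeats at such a spacing.

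Open reading frames of at least 1000 codons, the length class of ORF2, were present within 8 kb of 9 of the 30 centres, and their position differed between the kinds. In the 5 narrow regions that had one, the centre lay 1514 to 2348 bp upstream of the frame's start. In the 4 wide regions that had one, the centre lay 825 to 2068 bp past the start, inside the frame. Of these 9, the narrow regions hence sat on the promoter side of the element and the wide regions were centred on its body. Where in a wide region the H3K27ac signal lay is not given by the lists. Over all L1 regions, a tandem period was found at 14 in NOD (4.75%) and 10 in B6 (4.72%), beside 1.51% and 0.903% of regions outside L1. Frames of this length were near 9 NOD (3.05%) and 6 B6 (2.83%) L1 regions, beside 1.73% and 1.05% outside L1. These L1 shares followed the limits set, with 6.10% and 5.66% at 800 codons and 1.02% and 0.472% when the frame had to lie within 5 kb.

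The monomers themselves are shown for the L1Md_A, L1Md_T or L1Md_Gf region of each list under the H3K4me3 region with the most tags among those where neighbouring copies of at least 80% identity lay mostly in the region. They were chosen after the values were seen. Each pair is 2 consecutive copies from the GRCm38 plus strand, and capitals in copy 2 mark bases that differ from copy 1.
L1Md_T NOD copy 1, chr2:177094015-177094226: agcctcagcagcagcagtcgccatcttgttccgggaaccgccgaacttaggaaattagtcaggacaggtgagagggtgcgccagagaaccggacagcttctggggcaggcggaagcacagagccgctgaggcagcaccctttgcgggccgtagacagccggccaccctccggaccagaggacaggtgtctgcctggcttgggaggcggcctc
L1Md_T NOD copy 2, chr2:177094227-177094438: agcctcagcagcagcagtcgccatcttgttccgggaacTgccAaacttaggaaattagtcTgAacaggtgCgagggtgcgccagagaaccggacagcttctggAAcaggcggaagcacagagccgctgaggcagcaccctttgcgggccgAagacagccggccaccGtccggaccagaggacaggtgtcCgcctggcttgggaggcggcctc
L1Md_Gf B6 copy 1, chr6:107103083-107103294: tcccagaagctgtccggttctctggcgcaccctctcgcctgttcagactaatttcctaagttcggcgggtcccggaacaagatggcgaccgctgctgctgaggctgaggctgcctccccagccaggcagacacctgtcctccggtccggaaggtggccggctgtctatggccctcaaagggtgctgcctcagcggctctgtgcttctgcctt
L1Md_Gf B6 copy 2, chr6:107103295-107103506: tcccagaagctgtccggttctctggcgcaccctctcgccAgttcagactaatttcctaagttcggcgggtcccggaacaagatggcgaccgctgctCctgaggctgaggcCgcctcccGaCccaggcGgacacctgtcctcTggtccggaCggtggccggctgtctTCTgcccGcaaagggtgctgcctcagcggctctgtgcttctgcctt
The NOD copies were 95.3% identical (10 of 212 bases differed) and the B6 copies 94.3% identical (12 of 212). The pair at chromosome 2 lay with 412 of its 424 bases in the NOD region, and the pair at chromosome 6 with 219 of 424 in the B6 region. Both pairs hold the 9 letters AAGATGGCG or their complement, which match the core bound by YY1, a zinc finger factor with known sites in L1 promoters. This motif was searched only after the copies had been read. On either strand of the 300 bases around the centre, it was present in 13 of 18 L1Md regions with a tandem period (72.2%, 46.5 to 90.3), in 1 of 44 other L1Md regions, in 1 of 445 L1 regions outside L1Md and in 0.404% of the 11144 regions outside L1. Both printed regions, from which the motif was read, are counted among the 18. The 18 were also grouped by their repeats, so a motif read from such a repeat was bound to recur there. These shares are hence no test of enrichment. The letters describe the sequence and give no binding.

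Motifs of ES cell factors were searched in the same windows. TCAAGGTCA, the site of the nuclear receptor Esrrb, occurred in 0.592% of the 507 L1 windows (0.122 to 1.72) and in 1.47% (1.26 to 1.71) of the windows outside L1. ATGCAAAT, the octamer bound by Oct4 and its relatives, occurred in 3.94% (2.43 to 6.03) and 2.33% (2.06 to 2.63). GGGNGTGG, the site of Klf factors, occurred in 10.5% (7.93 to 13.5) and 12.1% (11.5 to 12.7). Each pair of intervals overlapped. No motif searched contains another, and both strands were read.

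**Figure D3:**
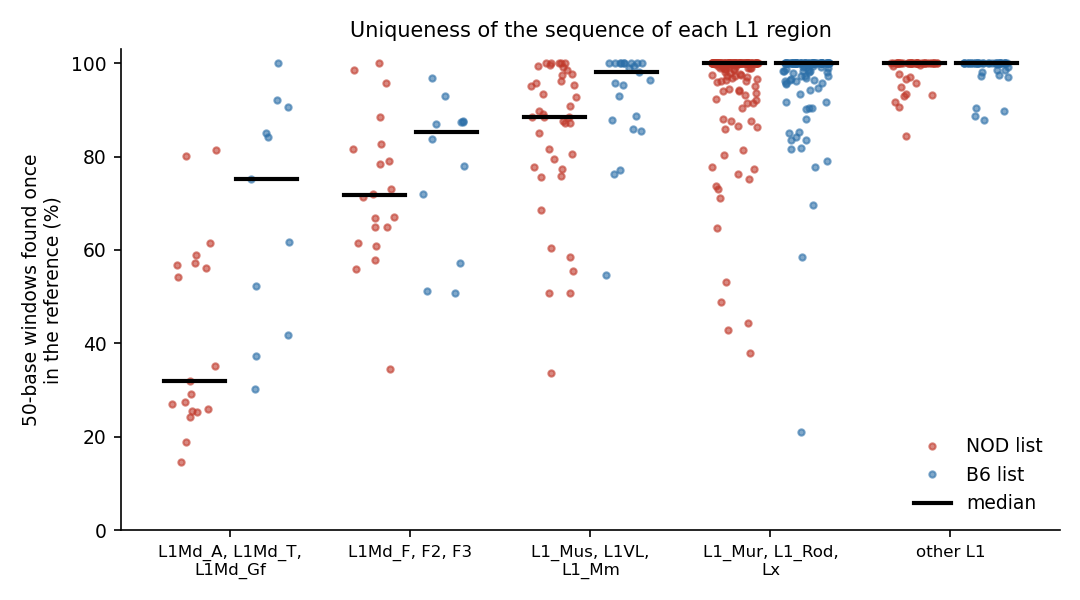
Share of the 50-base windows of each L1 region that occur at a single place in the GRCm38 reference, in percent, by group of subfamilies and list; each point is 1 region and bars are medians. The share is lowest in L1Md_A, L1Md_T and L1Md_Gf, with medians of 32% in NOD and 75.2% in B6, and reaches 100% in the older groups.

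How well 50-base reads can be placed followed the age of the subfamily. The share of 50-base windows of a region that occur at a single place in the reference had a median of 99.7% over NOD L1 regions and 100% over B6 L1 regions. For L1Md_A, L1Md_T and L1Md_Gf the medians were 32% in NOD and 75.2% in B6, for L1Md_F, L1Md_F2 and L1Md_F3 71.7% and 85.3%, and for L1_Mus, L1VL and L1_Mm 88.5% and 98.2%. Both older groups had medians of 100%. Under 50% of windows were of this kind in 17 NOD and 4 B6 L1 regions, 11 and 3 of them L1Md_A, L1Md_T or L1Md_Gf. The lowest shares were 14.6% in NOD, at an L1Md_T region on chromosome X 12.1 kb from Btbd35f1, and 20.9% in B6. Kept to regions with at least 95% such windows, an alternative chosen after the data were seen, the NOD to B6 ratio of L1 regions was 1.23. Among the regions so kept, L1 made up 4.02% of the NOD and 3.27% of the B6 list. The NOD value was the higher, but no interval was computed for these shares. Over the whole lists the intervals of the L1 shares overlapped (4.29 to 5.38 in NOD, 3.35 to 4.38 in B6). What part read placement plays in the difference was not tested. The ratio over all regions so kept was not computed, but a higher L1 share in NOD places that ratio below 1.23. How the aligner treated reads that match several places is not given in the sources used here, so scores and tags at the L1Md copies may hold reads of other copies. The NOD reads were placed on a C57BL/6J reference, and what part this plays in the lists was not tested.

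H3K4me3, which was not used to choose the members, gave a separate readout. A same-strain H3K4me3 region lay over 35 of 295 NOD L1 regions (11.9%, 8.40 to 16.1), beside 9.84% of the whole NOD list, and over 15 of 212 B6 L1 regions (7.08%, 4.01 to 11.4), beside 4.65% of the whole B6 list. Both intervals held the value of their list, so the L1 regions as a whole were not set apart. Kept to regions with at least 95% unique windows, the shares of L1 regions were 8.72% in NOD and 3.16% in B6. The whole-list shares were not computed under this limit, so these values cannot be set against those of the lists. The L1Md names stood higher. Of 62 L1Md regions, 17 (27.4%, 16.9 to 40.2) lay under same-strain H3K4me3, against 33 of 445 other L1 regions (7.42%, 5.16 to 10.3). In the B6 list this was 9 of 23 (39.1%, 19.7 to 61.5) against 6 of 189 (3.17%, 1.17 to 6.78). In the NOD list it was 8 of 39 (20.5%, 9.30 to 36.5) against 27 of 256 (10.5%, 7.07 to 15.0), whose intervals overlapped. With a tandem period, 9 of 18 L1Md regions were under H3K4me3 (50.0%, 26.0 to 74.0), and without one 8 of 44 (18.2%, 8.19 to 32.7). These intervals overlapped too. All 18 were under 1 kb, whereas 19 of the 44 were 1 kb or wider, so the 2 sets also differed in width. L1Md regions in both lists were far from annotated starts, with a median distance of 54.3 kb, and 3 of 62 lay within 10 kb of one.

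**Figure D4:**
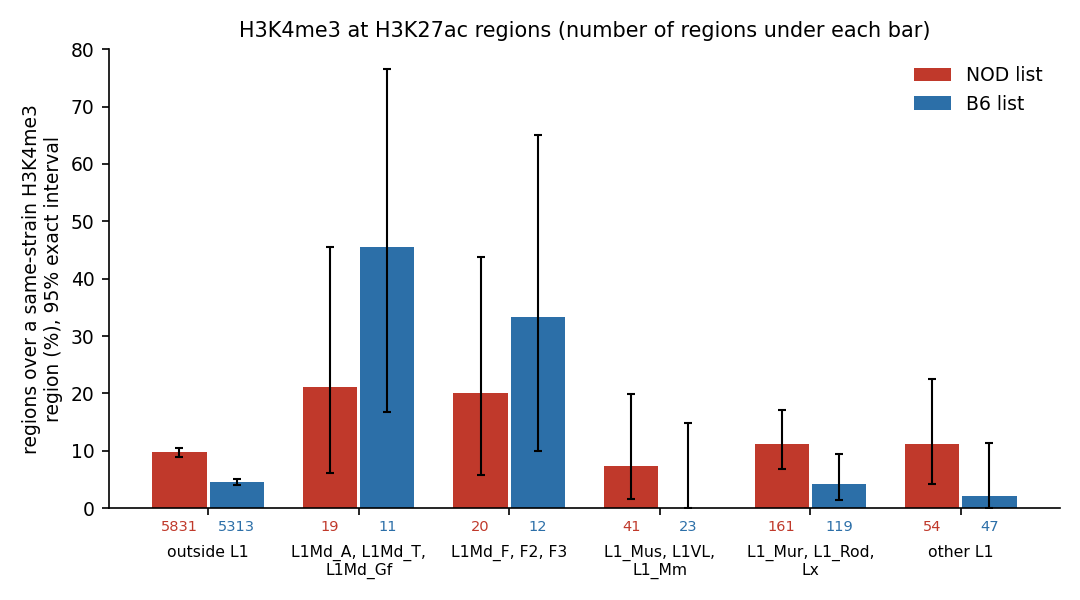
Share of H3K27ac regions under H3K4me3 of their own strain, in percent, outside L1 and in the 5 groups of L1 subfamilies, for the NOD (red) and B6 (blue) lists. Bars are shares, lines exact 95% intervals, and the number of regions stands under each bar; the bars of both L1Md groups are the highest, from 4 of 20 regions in NOD L1Md_F names to 5 of 11 in B6 L1Md_A, L1Md_T and L1Md_Gf, with wide intervals.

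Over all L1 regions of the NOD list, H3K4me3 was more frequent at wide regions. Of NOD L1 regions of 1 kb or more, 18 of 74 (24.3%, 15.1 to 35.7) were over H3K4me3, beside 24.2% of NOD regions of that width outside L1, and of those under 1 kb 17 of 221 (7.69%, 4.54 to 12.0). In B6 the shares were 4 of 43 (9.30%, 2.59 to 22.1) and 11 of 169 (6.51%, 3.29 to 11.3), beside 12.7% of B6 wide regions outside L1. In each list the interval of the wide L1 regions held the share of the wide regions elsewhere. An overlap needed 1 shared bp, and a wide region has more room for one. The median widths of the wide and narrow NOD L1 regions were 7644 and 233 bp, and a part for width alone was not tested.

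The H3K4me3 libraries held 22750449 tags in NOD and 14791364 in B6, and folds below are between tags per library size with an exact interval. The most tags over a NOD L1 region were at the Smarca5-ps region above, 2018 in NOD and 50 in B6, a 26.2-fold difference (19.8 to 35.5). The Tsix intron region had 420 and 27 tags (10.1-fold, 6.85 to 15.5). An L1_Mur2 region on chromosome 18, 69.3 kb from Ythdc2, an RNA helicase gene, had 308 and 4 (50.1-fold, 19.4 to 185). An Lx8 region at chr4:146903180-146909487, 116 kb from Rex2, a zinc finger gene of a multicopy cluster, had 301 and 36 (5.44-fold, 3.84 to 7.91). The L1Md_T region whose monomers are printed above, 167 kb from Gm14296, had 181 and 8 (14.7-fold, 7.31 to 34.6). These 5 had the most tags of the NOD L1 regions, and 1 of them was an L1Md region.

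In B6 the order was led by L1Md names. An L1Md_T region at chr14:53936170-53936522 had 92 B6 and 7 NOD tags (20.2-fold, 9.43 to 51.7). An L1Md_F3 region on chromosome 6, 704 kb from Rpia, had 74 B6 tags and none in NOD, a fold with an exact lower limit of 30.1 (37.9 when 3 tags are set for the empty library). An Lx7 region 6.50 kb from Sp110, an interferon-induced nuclear body gene, had 64 and 18 (5.47-fold, 3.20 to 9.81). The L1Md_Gf region at chr6:107103288-107103616, printed above, had 63 and 10 (9.69-fold, 4.94 to 21.2), and an L1Md_F2 region 10.6 kb from Eif3e, a translation initiation factor gene, had 63 and 7 (13.8-fold, 6.34 to 35.8). Of these 5, 4 were L1Md regions. Over all pairs the median was 46.0 NOD tags for a H3K4me3 region over a NOD L1 region and 38.5 B6 tags over a B6 one, both above the median over all H3K4me3 regions of their list. The H3K4me3 lists were called at a fold over the other strain, so these folds describe regions already chosen for a difference.

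The other strain's H3K4me3 lay over 4 NOD L1 regions (1.36%), beside 0.702% of the whole NOD list, and over 2 B6 L1 regions (0.943%), beside 1.92% of the whole B6 list. An L1Md_T region at chr2:175053448-175053710, 14.2 kb from Gm14393, had the most tags of these. It was in the B6 H3K27ac list, with a score of 8.03, and under an H3K4me3 region of 69 NOD and 11 B6 tags, 4.08-fold higher in NOD (2.14 to 8.55).

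The L1 regions lay farther from transcription starts than other regions. All of them were annotated as intergenic or intronic, whereas regions outside L1 also held promoters, exons and gene ends. The detailed annotation names a single feature for a region, so part of this difference follows from how members were chosen. Intergenic sites held 194 of the NOD (65.8%) and 124 of the B6 L1 regions (58.5%), beside 42.5% and 38.6% of regions outside L1, and introns held 101 (34.2%) and 88 (41.5%), beside 41.6% and 48.3%. The median distance to a transcription start was 37.1 kb in NOD and 36 kb in B6, beside 17.1 and 20.6 kb outside L1, and 17.3% and 16.0% lay within 10 kb of a start beside 39.2% and 32.6%. L1 regions of the lists did not overlap, and 6 pairs of a NOD and a B6 L1 region lay within 10 kb of each other. No 3 L1 regions of a list lay within 100 kb.

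By chromosome, with Y and its 1 L1 region left aside, X and 6 stood at the ends. On X, 24 of 27 L1 regions were in the NOD list (88.9%, 70.8 to 97.6), beside 69.3% (63.8 to 74.5) of all X regions. The 24 came from every group, 13 of them L1_Mur, L1_Rod or Lx, and all 3 B6 regions on X were of that group too. On chromosome 6, 13 of 46 L1 regions were in the NOD list (28.3%, 16.0 to 43.5), beside 35.1% of all regions there. Chromosome 4 had 26 NOD and 8 B6 L1 regions (76.5%, 58.8 to 89.3) beside 50.1% (46.6 to 53.6) of all regions, and here the intervals of L1 and of all regions did not overlap. On the other chromosomes the L1 interval overlapped that of all regions. No interval was adjusted for the number of chromosomes compared, and all regions include the L1 regions. The study carried male NOD lines forward for characterisation, but the labels do not say which line, or of which sex, gave a ChIP library, and a part for sex or copy number was not tested. Without chromosomes 6, 8 and X the NOD to B6 ratio of L1 regions was 1.45.

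**Figure D5:**
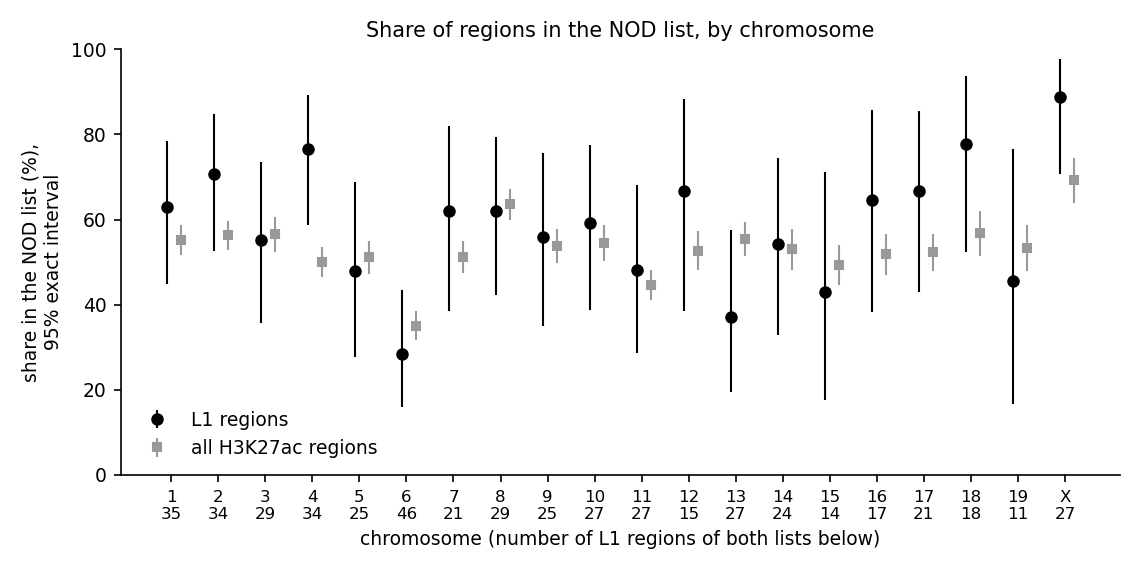
Share of regions that were in the NOD list, in percent, by chromosome, for L1 regions (black) and all H3K27ac regions (grey), with exact 95% intervals and the number of L1 regions under each chromosome. With Y and its 1 L1 region not drawn, X is highest at 88.9% and chromosome 6 lowest at 28.3%. On chromosome 4 the black and grey intervals do not overlap, with no adjustment for the number of chromosomes.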

How the data were processed

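ES cell chromatin was profiled by ChIP-Seq for H3K4me3 and H3K27ac in NOD and B6. The authors aligned single-end reads with bowtie2 and called regions with HOMER. The submitters' notes name mm9 and STAR 2.2.0c instead. The annotation header names mm10, and the deposited distances to a start matched RefSeq GRCm38.p6 in 480 of 504 L1 regions (within 100 bp), so GRCm38 was used. Each list was called with the other strain as background. The H3K27ac files hold a deposited score, the own less the other strain's signal, on a scale not given. The H3K4me3 files hold, per the file headers, tag counts, normalised signal, a fold ratio and a p-value over the other strain. The authors' ratios and p-values were not used. NOD tags, deposited scaled to the B6 library, were scaled back, and lay within 0.0769 of whole numbers. H3K27ac depth is unknown.

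Region members, lists, tests and alternatives were chosen with earlier results of these data known. Overlap meant 1 bp shared. A super enhancer was a region with a slope of at least 1 and a score above its list's median, because the slope also passes 1 at the lowest scores. Window uniqueness counted exact 50-base windows on both strands. Open reading frames ran from stop to stop. A tandem period needed 300 bases in a row at 80% identity within 1500 bp of the centre, at least 20 points above the median over shifts. Binomial intervals were exact (Clopper-Pearson), ratio intervals conditional binomial. Named regions were, for each list, the 10 highest L1 scores, the highest of each subfamily group, the 5 under the same-strain H3K4me3 region with most tags, those under other-strain H3K4me3 with at least 50 tags, and clusters of 3 within 100 kb. Steps were tested on simulated data. Python 3.11.15, numpy 2.4.6, pandas 2.3.3, scipy 1.17.1, numba 0.67.0 and matplotlib 3.10.9 were used.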

Additional observations from a re-analysis of the deposited data

Results flagged for a closer look

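At 6 L1 regions the marks went opposite ways, with H3K27ac enriched in one strain and H3K4me3 in the other. With 1 library a group, the difference was not tested. In the B6 H3K27ac list these were the L1Md_T region near Gm14393 on chromosome 2, under H3K4me3 of 69 NOD and 11 B6 tags, and an L1_Rod region 54.6 kb from Dapl1 on the same chromosome, with 36 NOD and 5 B6 tags. In the NOD list they were an Lx5b region 0.972 kb from Zfp51 (43 B6 and 13 NOD tags), an L1MA5A region on chromosome 8 (28 and 7), an L1Md_T region 124 kb from Thsd7a on chromosome 6 (25 and none) and an Lx8 region 116 kb from Rex2 on chromosome 4 (21 and 7). The Rex2 region was 6.31 kb wide and also held NOD-enriched H3K4me3 of 301 NOD and 36 B6 tags. The Thsd7a region was 9.71 kb wide and the Dapl1 region 10.5 kb, so the marks need not share a site in them.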

How the results depend on the processing

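Of 69 alternatives for 17 results, 50 left the value within the 95% interval of the reported one (exact binomial or ratio intervals, order statistics for medians), and none turned the NOD to B6 ratio of L1 regions below 1. The ratio over all regions, 1.11 as reported, is not given under these alternatives. Whether the L1 ratio stayed above it is therefore not shown by that count. With 1 library a group no alternative involved a test. Kept to regions of at least 95% unique windows, chosen after seeing the data, L1 made up 4.02% of the NOD and 3.27% of the B6 list, and same-strain H3K4me3 lay over 3.16% of B6 L1 regions. Counting all L1Md names instead of L1Md_A, L1Md_T and L1Md_Gf gave 13.2% of NOD and 10.8% of B6 L1 regions. The median score was 27.8 in NOD and 21.6 in B6 among scores of at least 10, 11.0 in both lists under 1000 bp, and 37.0 and 36.3 per kb. Under 1000 bp, 7.69% of NOD L1 regions lay over same-strain H3K4me3. Windows of 36 bases lowered the median unique share to 92.7% in NOD and 97.0% in B6, and scores of at least 10 gave 99.0% in B6. A frame of 800 codons was near 6.10% of NOD L1 regions, and within 5 kb the shares were 1.02% in NOD and 0.472% in B6. A tandem period was found at 2.01% of NOD L1 regions that scored at least 10. The cause of these shifts was not tested beyond the smaller sets used.

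No paired analysis was possible because each strain and mark had 1 library and the labels carry no replicate numbers. The H3K27ac depth is unknown, so no precision can be given for a score. H3K4me3 tags limit folds at regions with few tags in the other strain, where the intervals are wide. Groups of 11 to 20 regions, as for the L1Md names in each list, cannot separate shares that differ by less than about their intervals. Positions come from the C57BL/6J reference, and L1 insertions particular to NOD were not analysed here.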
